A study of Mus musculus with 18 samples.

Results

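The genes described here are 40 mouse genes of DNA replication and cell division, listed by name and ordered by role: the MCM helicase (Mcm2, Mcm3, Mcm4, Mcm5, Mcm6 and Mcm7), origin licensing and firing (Cdc6, Cdt1 and Cdc45), DNA synthesis and nucleotide supply (Pcna, Rrm1, Rrm2, Tyms and Top2a), cyclins and cyclin-dependent kinases (Ccnd1, Ccne1, Ccne2, Ccna2, Ccnb1, Ccnb2, Cdk1 and Cdk2), mitotic kinases and the spindle checkpoint (Aurka, Aurkb, Plk1, Bub1, Bub1b, Ttk and Cdc20), spindle, kinetochore and cytokinesis (Kif11, Kif20a, Kif23, Birc5, Cenpn, Cenpe, Cenpf, Nusap1 and Tpx2), and the proliferation marker Mki67 with the transcription factor Foxm1. They were chosen by name and function, with earlier results of these data known. Of the 40 genes, 39 were measured, among 19938 genes tested on the array, and Ccnb1 was not measured here. The vestibular organ, which senses balance and head motion, was taken from mice of both Igf1 genotypes, Igf1+/+ (wild type) and Igf1-/- (null), on a hybrid Mf1 with 129/sv background. Embryos at E18.5, pups at P15 and adults at P90 gave 6 groups of 3 arrays each, 18 arrays in all, and the groups are set by the genotype and age in the titles, source names and genotype labels. The labels conflict in 1 place: the description of the 3 wild-type samples at P15 and of the 3 at P90 names Igf1-/-, against the other label fields of the same samples. Every genotype difference at P15 and P90 below, and every change with age in wild type, rests on the other fields. Igf1 encodes a secreted growth factor, and the null genotype lacks it in the whole animal. All animals were perfused with 4% paraformaldehyde before dissection. Total RNA came from a Trizol extraction of the inner ear tissue, and 100 ng of it went into the labelling for a whole-transcript array. The labels call the 3 arrays of a group biological replicates without saying whether each came from 1 animal or a pool, and several arrays hold both Xist and Y-linked RNA (values below), so every p-value below measures the spread between these arrays.

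Cells that divide pass through G1, copy their DNA in S phase and separate it in mitosis. In G1 the Cdc6 and Cdt1 proteins load the ring-shaped MCM helicase onto replication origins, and cyclin E and cyclin A with Cdk2 help to fire those origins. Transcription of the replication genes is driven largely by E2F factors, and that of the mitotic genes by the MuvB complex with B-Myb and FoxM1, which binds a promoter element called the cell cycle genes homology region (CHR), often beside CCAAT boxes. In the mouse vestibular organ most sensory hair cells and supporting cells leave the cell cycle around birth, while cartilage, bone marrow, blood and connective tissue around them keep dividing cells for longer.

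The promoter sequences of 7 members show these elements. They come from RefSeq (build GRCm38.p6) and run 5′ to 3′ on the gene's strand up to the base before its annotated start. Capitals mark matches, on either strand, to the CHR (TTTGAA or TTCGAA), the CCAAT box (CCAAT) and an E2F-like motif (TTTNNCGC). Cenpn, Cdc20 and Kif11, with products at the kinetochore, the anaphase-promoting complex and the spindle, are shown because each holds a CHR close to the start and a CCAAT box. Cdk1, the kinase that drives entry into mitosis, holds all 3 motifs, and Mki67 holds a pair of CHR matches and several CCAAT boxes. Mcm6 and Cdc6 are shown as replication genes, with E2F-like matches and no CHR in their windows. A pair of E2F-like matches in Mcm6 overlap.
Cenpn: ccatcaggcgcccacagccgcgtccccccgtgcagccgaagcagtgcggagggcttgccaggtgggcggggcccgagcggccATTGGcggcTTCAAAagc
Cdc20: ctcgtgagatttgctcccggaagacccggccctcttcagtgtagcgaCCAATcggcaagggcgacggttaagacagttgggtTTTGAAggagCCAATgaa
Kif11: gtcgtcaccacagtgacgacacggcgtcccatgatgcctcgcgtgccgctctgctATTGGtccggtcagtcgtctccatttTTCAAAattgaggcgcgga
Cdk1: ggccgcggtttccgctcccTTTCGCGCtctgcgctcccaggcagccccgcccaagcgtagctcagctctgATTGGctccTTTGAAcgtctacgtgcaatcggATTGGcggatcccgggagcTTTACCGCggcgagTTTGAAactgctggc
Mki67: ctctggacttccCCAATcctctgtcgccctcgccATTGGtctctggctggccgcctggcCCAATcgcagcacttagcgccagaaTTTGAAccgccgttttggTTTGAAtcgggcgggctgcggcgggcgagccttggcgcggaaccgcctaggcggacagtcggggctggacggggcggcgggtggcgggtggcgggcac
Mcm6: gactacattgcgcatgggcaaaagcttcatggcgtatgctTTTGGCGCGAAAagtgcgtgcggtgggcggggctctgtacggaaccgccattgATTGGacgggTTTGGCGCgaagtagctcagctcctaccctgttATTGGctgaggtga
Cdc6: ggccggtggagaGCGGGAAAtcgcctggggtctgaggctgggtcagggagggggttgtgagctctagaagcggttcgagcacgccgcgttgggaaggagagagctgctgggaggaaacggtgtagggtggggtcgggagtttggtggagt

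Cenpn lies at chr8:116921640-116921739 on the plus strand, Cdc20 at chr4:118437344-118437443 on the minus strand, Kif11 at chr19:37376282-37376381 on the plus strand and Cdk1 at chr10:69352913-69353062 on the minus strand. Mki67 lies at chr7:135716380-135716579 on the minus strand, Mcm6 at chr1:128359706-128359855 on the minus strand and Cdc6 at chr11:98908001-98908150 on the plus strand. Windows from 250 bases before to 50 bases after the start were given for 32 of the 40 members and for 27025 genes in all. A CHR match stood in the windows of 17 of the 32 members (53.1%) and of 21.7% of all genes. The 13 mitosis members with a window held it in 10 cases (76.9%), and the 13 replication members in 4 (30.8%). CCAAT boxes were found in 26 of the 32 members (81.2%) against 41.1% of all genes. The E2F-like motif was found in 9 members (28.1%) against 5.93% of all genes, with 7 of the 13 replication members and 0 of the 13 mitosis members. CHR and CCAAT box matches stood together in 17 members (53.1%) and in 8.61% of all genes. A match describes these letters only and shows no binding.

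Values are on the deposited log scale, whose base the sources used here do not state. The highest deposited value was 10.03, which would be 14.47 in log2 if the base were e. A difference of 1 unit is then a factor of 2.72 with base e or of 2 with base 2, and the sentences below give differences in log units. Differences are written as null minus wild type, or later minus earlier age, with the standard error (SE) of a limma fit over all 18 arrays. A gene is called when its p-value, adjusted over all 19938 genes by the Benjamini-Hochberg method, is under 0.05. In counts of genes between ages, rose and fell mean called higher or lower at the later age. The number of arrays limits the precision. The dim level was set at 3.396, the 20th percentile over all genes of the highest group mean, and all 39 members had means above it in all 6 groups.

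The Igf1 probe set, the check of the genotype, was lower in null arrays at E18.5 and P15 without passing the test. It read 7.02, 7.07 and 6.98 in wild type and 6.40, 6.88 and 6.51 in null arrays at E18.5, and 5.87, 6.11 and 5.89 against 5.54, 5.69 and 5.42 at P15, with no overlap at either age. At P90 the values overlapped, 5.63, 5.39 and 5.56 against 5.43, 5.51 and 5.31. The adjusted p in limma was 0.16, 0.48 and 0.76 at the 3 ages, and the labels do not say which part of the gene was removed, so a probe set outside that part would check nothing. The conflict in the P15 and P90 labels is therefore not settled by this gene. Hair cell markers (Myo7a, Pou4f3 and Gfi1 first among 15) stood above the dim level in 14 or 15 of 15 cases at E18.5 and 10 to 13 later, and 11 or 12 of 12 otoconia and supporting cell markers did in each group. Cartilage markers averaged 7.37 to 7.73 at E18.5, 5.03 to 5.57 at P15 and 4.66 to 4.96 at P90. On the third principal component of all genes, which held 5.46% of the variance, E18.5 null arrays 2 and 3 and P90 wild-type arrays 1 and 2 stood together (16.3, 18.8, 13.5 and 17). Differences that use them are therefore also given without these 4 arrays where the value moved. Leaving them out leaves 1 array in E18.5 null and 1 in P90 wild type, so such values rest on a single array there. In P90 arrays Xist, which marks female cells, was 3.33, 2.87 and 1.86 in wild type and 7.91, 7.43 and 7.42 in null, so the Xist level moves with genotype at that age. The Y-linked gene Eif2s3y read 6.57, 6.61 and 6.83 in wild type and 1.75, 5.78 and 5.90 in null, and Kdm5d and Uty were lowest in null array 1 too, while null arrays 2 and 3 held Y-linked RNA beside high Xist. The E18.5 arrays held both too, with Xist from 7.31 to 8.01 and Eif2s3y from 5.35 to 6.10. At P15 the groups were mixed, with Xist at 7.48, 5.34 and 7.48 in wild type and 7.61, 8.09 and 4.09 in null and Eif2s3y at 5.87, 6.49 and 6.42 and 6.11, 3.30 and 6.59. The arrays therefore do not sort into 2 sexes, and Xist as a covariate follows a level and not a sex. In such bulk tissue, fewer dividing cells and less RNA per cell cannot be told apart.

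Across the 6 groups most members shared a pattern. Their mean level per array was 5.74, 5.81 and 5.78 in wild type and 5.80, 5.69 and 5.74 in null at E18.5. At P15 it was 5.73, 6.03 and 5.76 in wild type and 5.36, 5.63 and 5.49 in null. At P90 it was 5.53, 4.96 and 5.09 in wild type and 4.99, 5.03 and 4.46 in null. The E18.5 arrays lay close together, the P15 wild-type arrays lay above all P15 null arrays, and at P90 both genotypes were lower and overlapped. By group mean, 25 members were highest in P15 wild type, 7 in E18.5 wild type and 7 in E18.5 null. The lowest group was P90 null for 38 of 39, and P90 wild type for Ccnd1. The genes highest before birth were Tyms, Cdk2, Bub1, Bub1b, Ttk, Cenpf and Tpx2 in wild type, and Ccnd1, Ccne1, Cdk1, Cdc20, Kif20a, Kif23 and Foxm1 in null. The E18.5 arrays of the 2 genotypes overlapped for all of these genes but Tpx2, and their order there is otherwise within the spread.

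**Figure D1:**
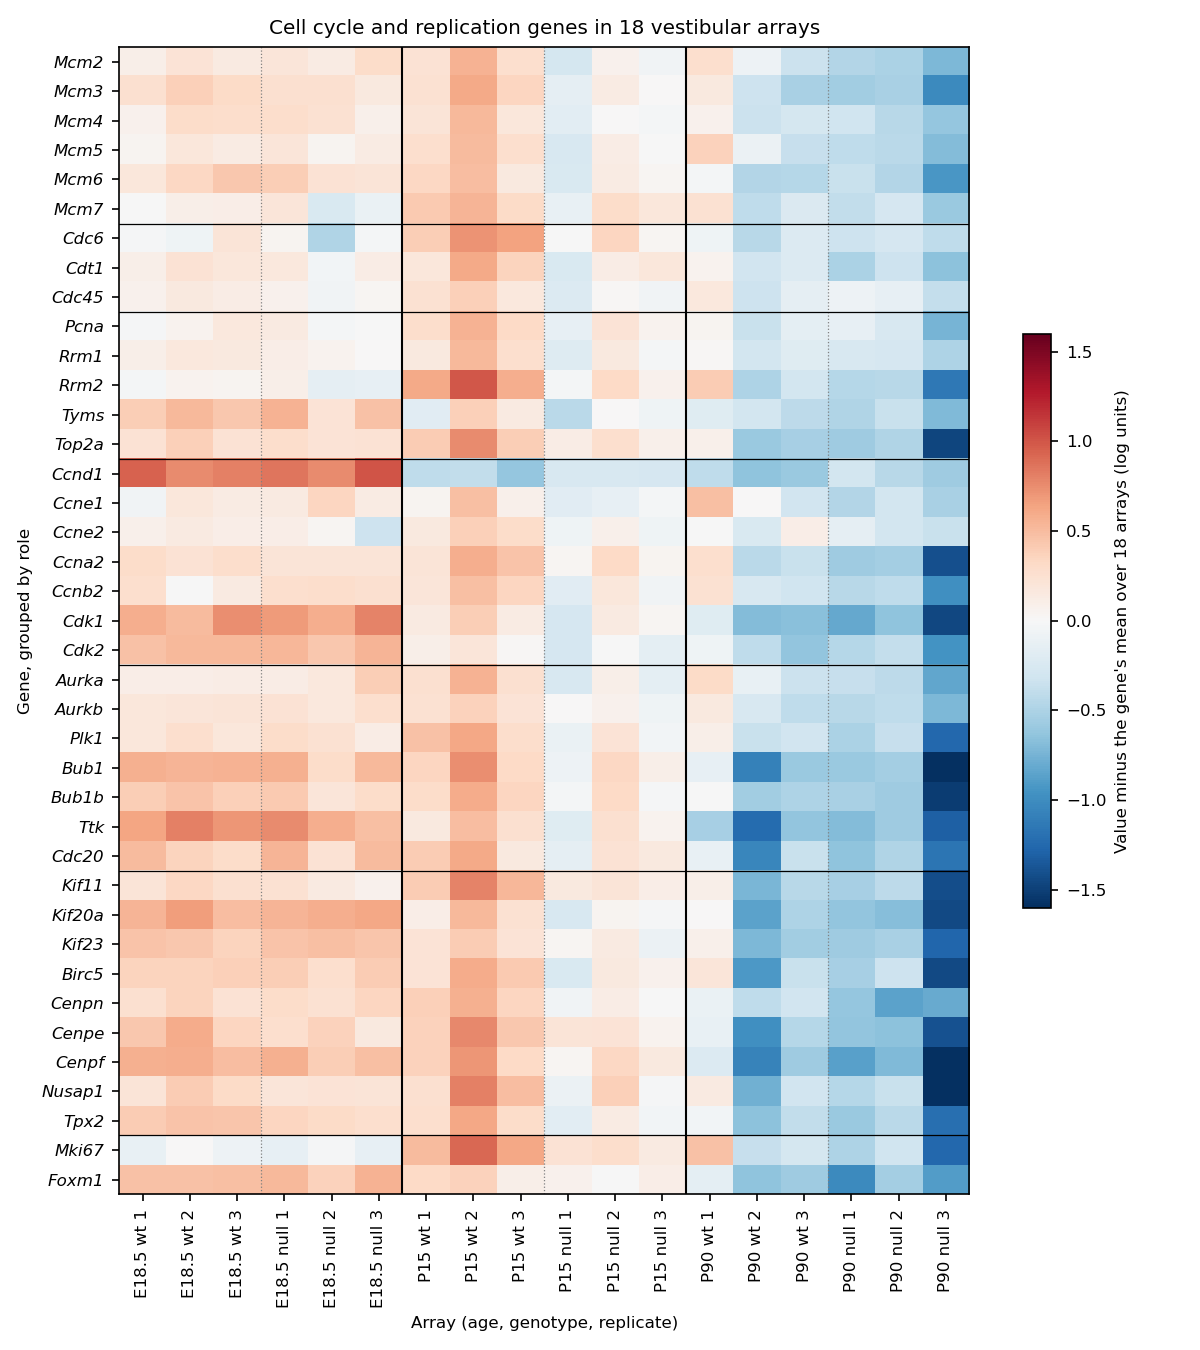
Each row is 1 of the 39 measured cell cycle and replication genes, ordered by role, and each column 1 of the 18 arrays; colour gives the value minus that gene's mean over the 18 arrays, in log units. Array 2 of P15 wild type forms the reddest column among postnatal arrays and array 3 of P90 null the bluest, and Ccnd1 is red at E18.5 and blue in every postnatal array.

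The members moved together from array to array within a group after birth. Of the 6 arrays at P15, wild-type array 2 held the highest value for 38 of the 39 members, and for 17.3% of all genes. Null array 1 held the lowest for 31 members, against 20.2% of all genes. At P90, wild-type array 1 was highest for 37 members (15.1% of all genes) and null array 3 lowest for 35 (13.5% of all genes). The median standard deviation (SD) over 3 arrays was 0.31 in wild type and 0.32 in null at P90, against 0.16 and 0.14 for all genes. At P15 it was 0.18 and 0.17 (all genes 0.11 and 0.11), and at E18.5 it was 0.064 and 0.087 (all genes 0.084 and 0.15). The members thus spread more than the typical gene after birth and less before it. Because they share these arrays, the number of members that lean one way is not a number of independent observations.

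At P15, nearly all members were lower in the null organ, and none of these differences passed the test over all genes. The difference was negative for 38 of 39 members, against 46.3% of all genes, with a median of -0.35 (all genes 0.01) and a range from -0.61 (Rrm2) to 0.21 (Ccnd1). In 27 members all 3 null arrays lay below all 3 wild-type arrays, which held for 7.75% of all genes. In limma 0 members were called in either direction (0% of all genes called lower, 0.015% higher), while 18 lower and 1 higher had an unadjusted p under 0.05 (3.27% and 3.7% of all genes). The smallest adjusted p was 0.29. Without P15 wild-type array 2 the median was -0.25, without null array 1 it was -0.28, and 38 members stayed lower in both cases.

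Among the genes that load and form the replicative helicase, the separation was complete for the MCM ring. All 6 MCM genes were lower in every null array than in every wild-type array, with a median of -0.38. Mcm2, a subunit of the helicase, read 6.06, 6.38 and 6.09 in wild type and 5.55, 5.89 and 5.77 in null. Its difference was -0.44 ± 0.14 (adjusted p = 0.52 in limma), so the groups did not overlap yet the call failed over all genes. Cdc6, the loader of the helicase, read 5.11, 5.44 and 5.37 against 4.71, 5.06 and 4.75, a difference of -0.47 ± 0.15 (adjusted p = 0.52 in limma). The lowest wild-type array stood just above the highest null array. Cdc45, which activates the loaded helicase, differed by -0.35 ± 0.11 without overlap, and Cdt1, the partner of Cdc6, by -0.37 ± 0.14, where 1 null array equalled the lowest wild-type array at 5.07.

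The 5 genes of DNA synthesis and nucleotide supply were lower by a median of -0.34. Rrm2, the subunit of ribonucleotide reductase that limits the supply of DNA building blocks, gave the widest difference of all members, -0.61 ± 0.21 (adjusted p = 0.56). It read 6.24, 6.62 and 6.21 in wild type and 5.60, 5.95 and 5.70 in null, without overlap. Its partner subunit Rrm1 differed by -0.34 ± 0.11, the sliding clamp gene Pcna by -0.33 ± 0.15 and the topoisomerase gene Top2a by -0.37 ± 0.22, each without overlap. Tyms, which makes thymidylate, differed by -0.28 ± 0.15 and its arrays overlapped.

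Of the 7 measured cyclin and kinase genes, 6 were lower in null and Ccnd1 went the other way. Ccne1, Ccne2, Ccnb2 and Cdk2 were lower without overlap (-0.31 ± 0.16, -0.30 ± 0.11, -0.36 ± 0.16 and -0.24 ± 0.15). Ccna2 and Cdk1 were lower by -0.28 ± 0.21 and -0.26 ± 0.19, with overlap. Ccnd1 encodes cyclin D1, which couples growth factor signals to G1 progress in many cells. It read 5.55, 5.57 and 5.34 in wild type and 5.70, 5.70 and 5.69 in null. All null arrays were the higher ones (as for 8.75% of all genes), by 0.21 ± 0.09 (adjusted p = 0.70 in limma, unadjusted p = 0.045).

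Mitotic genes leaned the same way. All 7 mitotic kinase and checkpoint genes were lower, by a median of -0.32, and 3 of them without overlap: Aurka, Aurkb and Plk1, kinases of the centrosome, the chromosomal passenger complex and mitotic entry. Aurka read 5.70, 5.99 and 5.70 in wild type and 5.18, 5.53 and 5.28 in null, a difference of -0.47 ± 0.16. All 9 spindle, kinetochore and cytokinesis genes were lower, by a median of -0.41, with 7 free of overlap. Cenpn, a kinetochore protein that reads the centromeric nucleosome, had the smallest p of all members. It read 5.58, 5.77 and 5.55 in wild type and 5.15, 5.32 and 5.19 in null, a difference of -0.41 ± 0.09 (adjusted p = 0.29 in limma, unadjusted p = 0.00046). Mki67, a protein of the mitotic chromosome surface used as a proliferation marker, read 7.06, 7.48 and 7.18 against 6.79, 6.84 and 6.70, again without overlap. Foxm1 differed by -0.21 ± 0.13 and overlapped.

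**Figure D2:**
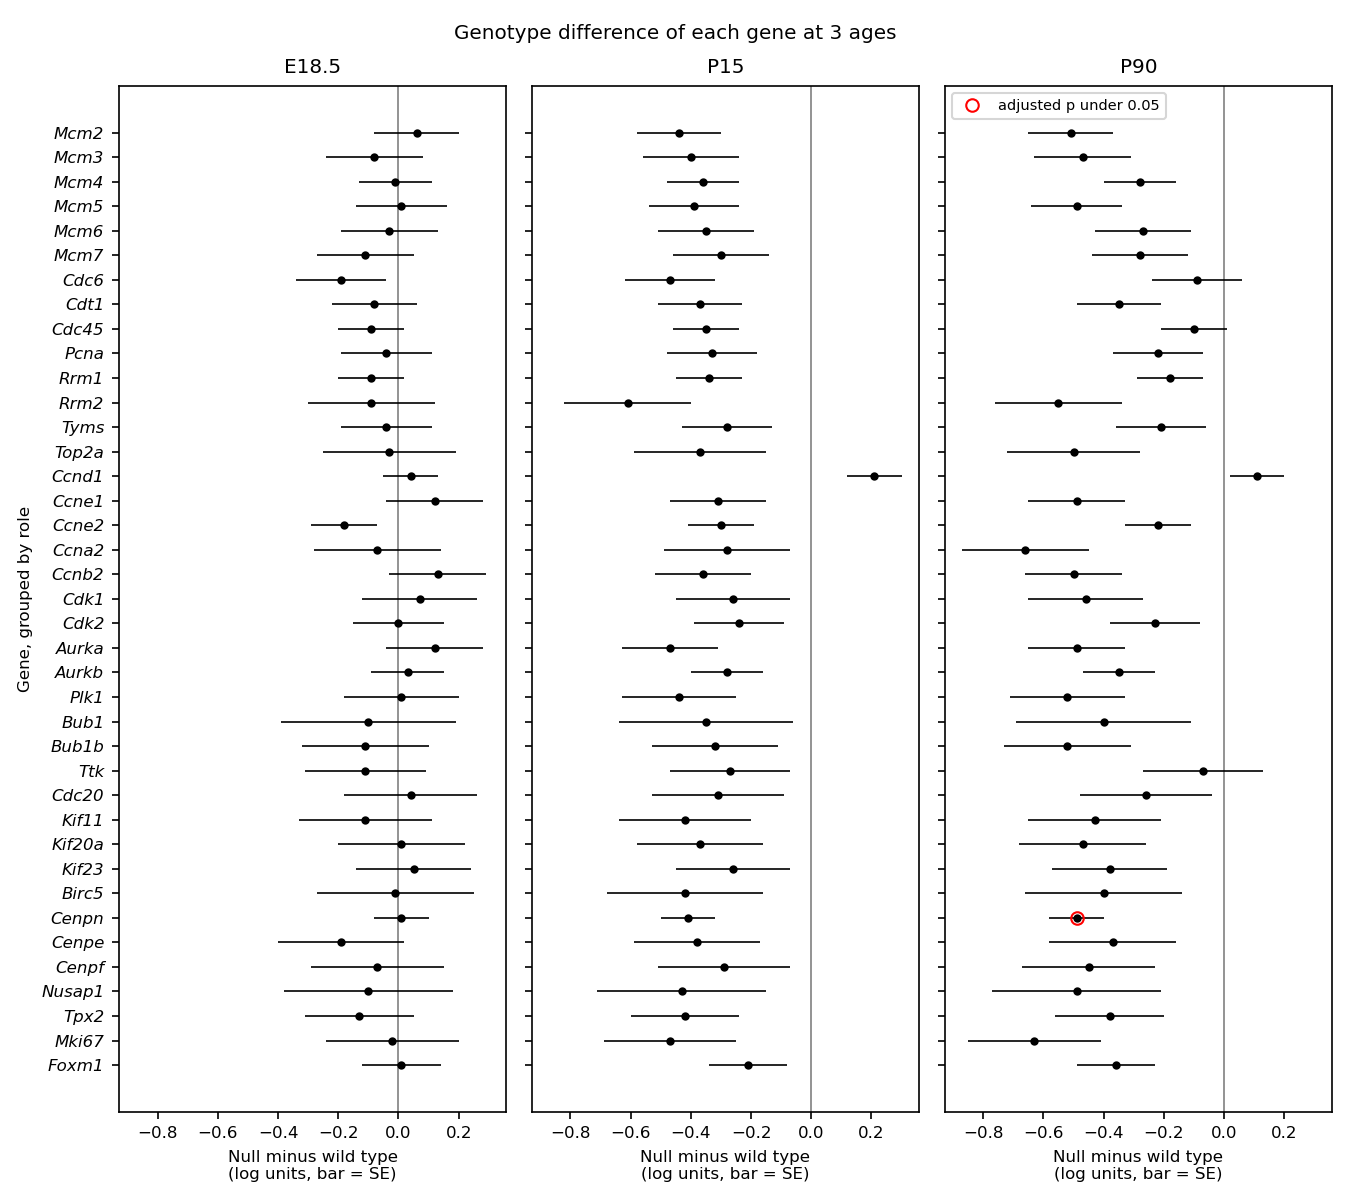
Points give the null minus wild-type difference of each gene in log units at E18.5, P15 and P90, bars the standard error of the limma fit, and the red ring an adjusted p under 0.05. The points scatter around 0 at E18.5 and lie left of 0 for 38 of 39 genes at P15 and at P90, with Ccnd1 right of 0; Cenpn at P90 is the 1 ringed gene.

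Markers of blood-forming cells and of skeletal muscle were mostly lower in null at P15, as the members were. Erythroid markers (Alas2, Slc4a1 and Epb42 among 12 measured of 18 listed, with the globin genes Hba-a1 and Hbb-b1 not measured) averaged 5.79, 6.31 and 6.19 in wild type and 5.20, 5.72 and 5.46 in null. All 12 were lower in null, by a median of -0.63, 9 without overlap and 0 called (9 with an unadjusted p under 0.05). B-cell progenitor markers (13 measured of 14, Vpreb1, Vpreb2 and Vpreb3 first) averaged 5.68, 5.58 and 5.41 against 5.27, 5.28 and 5.14, with 11 of 13 lower by a median of -0.41. Neutrophil precursor markers (Mpo, Elane and Prtn3 first of 14) averaged 6.21, 6.06 and 6.33 against 6.27, 5.67 and 5.75, and all 14 were lower, by a median of -0.29, with 1 free of overlap. Wild-type array 2 and null array 1, the extreme arrays of the members, were also the highest and the lowest for the erythroid mean. The B-cell progenitor and neutrophil precursor means had other arrays as their extremes. Skeletal muscle markers were lower in 15 of 15 cases too, by a median of -0.62, while cartilage markers were lower in 3 of 15 (median 0.15). Hair cell markers were higher in null in 12 of 15 cases (median 0.18) and otoconia and supporting cell markers in 10 of 12 (median 0.18). None of these lists had a gene called at P15, and their part in the members' difference was not tested.

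**Figure D3:**
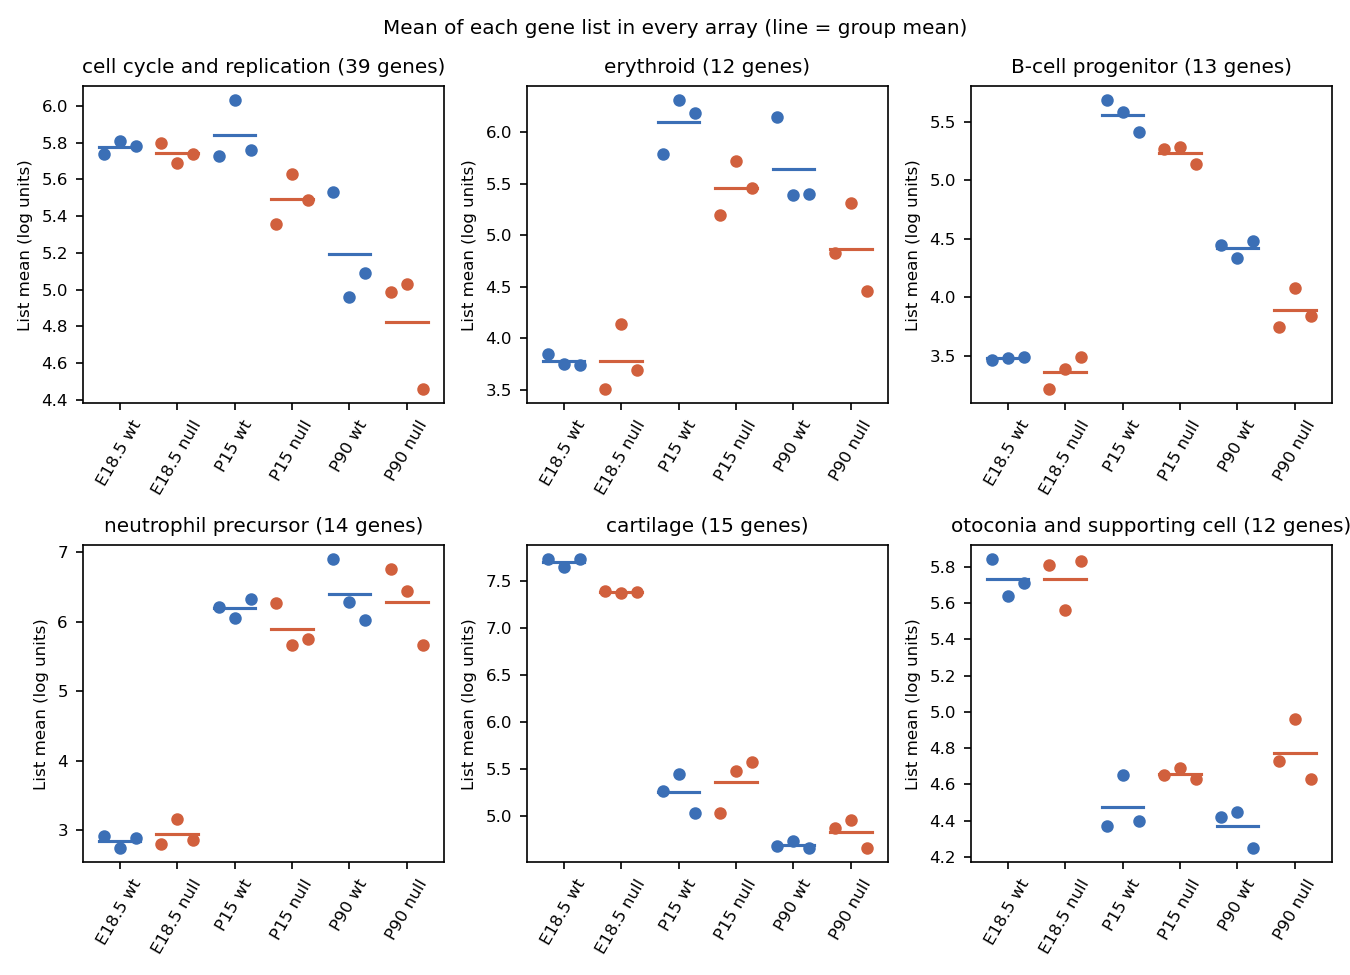
Each point is 1 array and gives the mean, in log units, over the measured genes of a list; blue is wild type, orange null, and the line the mean of 3 arrays. The P15 null arrays lie below the P15 wild-type arrays for the cell cycle and replication genes, the erythroid list and the B-cell progenitor list. At P90 the first 2 of these and the neutrophil precursor list share their highest array (wild type 1) and their lowest (null 3).

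At P90 the null arrays were again lower for 38 of 39 members, with 1 gene, Cenpn, past the test. The median difference was -0.40 (all genes 0.01), from -0.66 (Ccna2) to 0.11 (Ccnd1), with 46.4% of all genes lower. The 1 called member compares with 0.0552% of all genes called lower and 0.241% higher, and 20 members had an unadjusted p under 0.05 (4.36% of all genes lower). Arrays did not overlap for 8 members, against 4.06% of all genes: Mcm2, Mcm5, Cdt1, Ccna2, Ccnb2, Aurka, Plk1 and Cenpn. Without null array 3 the median was -0.18, and without wild-type array 1 it was -0.22, each with 36 of 39 lower. Without the 4 arrays that stood apart, which left 1 wild-type array, it was -0.29 with 37 lower, a choice made after the data were seen.

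Cenpn read 5.10, 4.80 and 4.89 in wild type and 4.58, 4.35 and 4.40 in null at P90. The genotypes did not overlap, and the difference was -0.49 ± 0.09 (adjusted p = 0.037 in limma), which is 1.63-fold with base e or 1.4-fold with base 2. The call ended with values not normalized between arrays (adjusted p = 0.61), with array medians subtracted (0.14), with the replicate block (0.072), with Xist as a covariate (0.89), with those 4 arrays given a term of their own (0.28) and in a fit of the P90 arrays only (0.47). Of the 27 settings tried, left-out arrays included, the call held in 10. The difference itself stayed between -0.56 and -0.29 over all of them.

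The next smallest p at P90 belonged to helicase genes. Mcm2 read 6.09, 5.74 and 5.48 in wild type and 5.36, 5.32 and 5.11 in null, a difference of -0.51 ± 0.14 (adjusted p = 0.16 in limma). Mcm5, of the same ring, read 5.90, 5.44 and 5.17 against 5.13, 5.10 and 4.84, a difference of -0.49 ± 0.15 (adjusted p = 0.25 in limma). In both genes the lowest wild-type array, the third, lay not far above the null arrays. Without wild-type array 3, 6 members were called, so the number of calls at P90 turned on single arrays. Ccna2, the cyclin of S phase and early mitosis, differed by -0.66 ± 0.21, and its null array 3 read 4.55 where the other two read 5.39 and 5.42. Ccnd1 read 5.55, 5.32 and 5.37 against 5.67, 5.51 and 5.39, overlapping, with 0.11 ± 0.09.

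By role, the P90 medians were -0.38 for the MCM genes, -0.10 for licensing and firing, -0.22 for DNA synthesis, -0.46 for cyclins and kinases, -0.40 for mitotic kinases and checkpoint and -0.43 for spindle and kinetochore genes. Cdc6 and Ttk, a spindle checkpoint kinase, were the nearest to 0 among the lower genes, with -0.09 ± 0.15 and -0.07 ± 0.20. Mki67 read 7.03, 6.19 and 6.27 in wild type and 6.06, 6.24 and 5.30 in null, and wild-type array 1 stood well above the other two. Erythroid markers were lower in 12 of 12 cases (median -0.83, 0 called, 9 with an unadjusted p under 0.05) and averaged 6.15, 5.39 and 5.40 against 4.83, 5.31 and 4.46. B-cell progenitor markers averaged 4.45, 4.34 and 4.48 against 3.75, 4.08 and 3.84, without overlap, with 11 of 13 lower (median -0.56) and 2 called. Neutrophil precursor markers overlapped, 6.90, 6.28 and 6.03 against 6.76, 6.44 and 5.66. Skeletal muscle markers were lower in 15 of 15 cases (median -0.20, 0 called, 0 with an unadjusted p under 0.05). Otoconia and supporting cell markers went the other way, higher in null in 12 of 12 cases (median 0.45, 7 without overlap, 1 called), as did hair cell markers in 13 of 15 (median 0.24, 5 without overlap, 1 called). Wild-type array 1 and null array 3 were the extremes of the erythroid and neutrophil precursor means as they were of the members. With Xist as a covariate the members' median was -0.40 with 37 lower and 0 called, while the part of the marker lists was not tested.

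**Figure D4:**
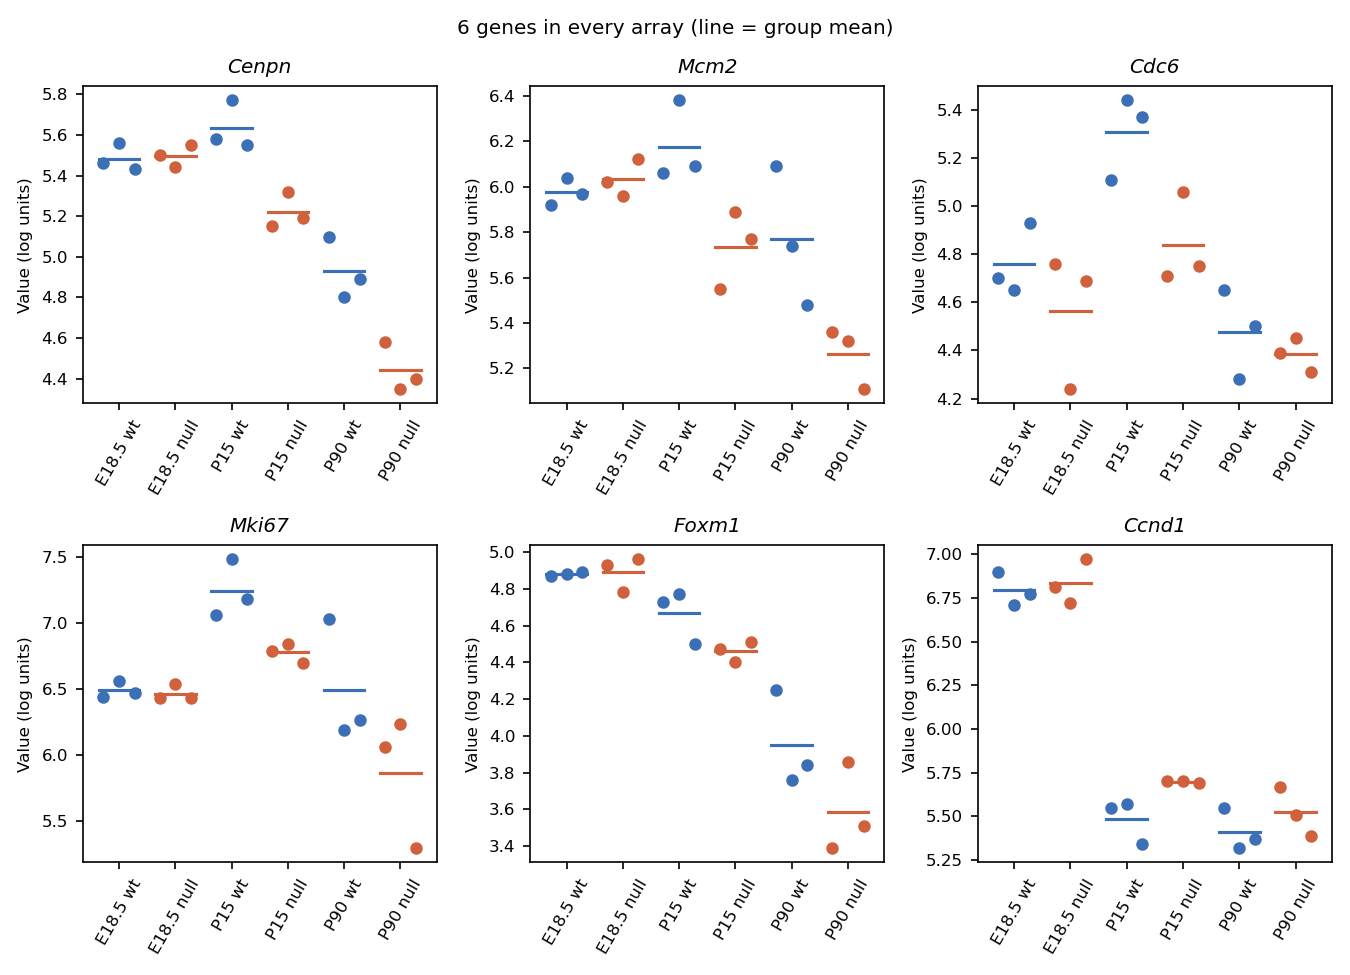
Each panel gives 1 gene in all 18 arrays (points) with the group mean (line), in log units, blue for wild type and orange for null. Cenpn separates by genotype at P15 and P90 without overlap, Mcm2 likewise, Cdc6 and Mki67 peak in P15 wild type, Foxm1 is lower at each later age, and Ccnd1 drops between E18.5 and P15 in both genotypes.

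At E18.5 the genotypes were close. The difference was negative for 25 of 39 members (54.4% of all genes), with a median of -0.03 (all genes -0.02) and a range from -0.19 to 0.13. In limma 0 members were called, against 0.0201% of all genes called lower and 0.0602% higher, and 0 had an unadjusted p under 0.05 (6.06% of all genes lower). Arrays did not overlap for 2 members, Ccna2 and Tpx2, both lower, against 11.7% of all genes. The smallest p among the lower genes belonged to Ccne2, cyclin E2, at 5.30, 5.37 and 5.33 in wild type and 5.33, 5.25 and 4.89 in null, a difference of -0.18 ± 0.11, which came mostly from null array 3. Cdc6 read 4.70, 4.65 and 4.93 against 4.76, 4.24 and 4.69, and null array 2 alone was low. Cenpe, a kinetochore motor, differed by -0.19 ± 0.21.

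Among the higher genes at E18.5, Ccnb2, cyclin B2, read 6.25, 5.98 and 6.13 in wild type and 6.26, 6.27 and 6.24 in null, a difference of 0.13 ± 0.16. Ccne1 differed by 0.12 ± 0.16 and Aurka by 0.12 ± 0.16. Each of these 3 changed sign under another scaling or array setting. The median was -0.23 with values not normalized between arrays and -0.20 with array medians subtracted, where the median of all genes moved to -0.15 and -0.12. Without the 4 arrays that stood apart, which left a single null array, it was 0.02. Erythroid (median -0.01) and neutrophil markers (0.09) were near 0 as well, and skeletal muscle markers were higher in null in 15 of 15 cases (median 0.65, 5 called). Cartilage markers were lower in null in 14 of 15 cases, 12 of them without overlap and 0 called (4 with an unadjusted p under 0.05), with a median of -0.20 and a lowest value of -1.75.

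The genotype difference at P15 was more negative than at E18.5 for 38 of 39 members, with a median change of -0.31 (all genes 0.03, 45% lower). The test of that change called 0 members (0.13% of all genes lower), and 4 lower ones had an unadjusted p under 0.05 (4.04% of all genes): Cenpn, Aurka, Mcm2 and Ccnb2. For Cenpn the change was -0.42 ± 0.13 (adjusted p = 0.33 in limma), for Aurka -0.59 ± 0.22 (0.49) and for Mcm2 -0.50 ± 0.19 (0.50). Markers of other cells moved with this change. Skeletal muscle markers gave a lower genotype difference in 15 of 15 cases (median -1.28, 8 called, 15 with an unadjusted p under 0.05), erythroid markers in 12 of 12 (median -0.61, 0 called, 2 unadjusted) and neutrophil precursor markers in 14 of 14 (median -0.33, 0 called, 0 unadjusted), while cartilage markers gave a higher one in 14 of 15 (median 0.44, 0 called, 7 unadjusted). Their part in the members' change was not tested. Among the members, Ccnd1 had the 1 positive change, 0.17 ± 0.13. From P15 to P90 the genotype difference moved by a median of -0.05, lower in 22 of 39 (48.1% of all genes), with 0 called (0.00502% of all genes lower) and 0 with an unadjusted p under 0.05 (2.97% lower). It moved down furthest by p for Ccna2 (-0.39 ± 0.29), Foxm1 (-0.15 ± 0.18) and Ccne1 (-0.17 ± 0.23), and up for Cdc6 (0.37 ± 0.21), Cdc45 (0.25 ± 0.16) and Rrm1 (0.16 ± 0.16). A limma F-test of equal genotype differences at the 3 ages called 51 genes and 0 members. Its smallest adjusted p among members was 0.17, and 5 members had an unadjusted p under 0.05. The share of all genes under that level was not counted, so the 5 cannot be set against it. These comparisons share the P15 arrays, and the differences at the 3 ages are therefore given side by side without a correlation.

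Between E18.5 and P15 the members did not change as a block in wild type. The difference was positive for 27 of 39, against 44.1% of all genes, with a median of 0.12 (all genes -0.05), and 3 genes rose and 2 fell (all genes 19.7% and 21.9%). Cdc6 rose by 0.55 ± 0.15 (adjusted p = 0.0062 in limma), from 4.70, 4.65 and 4.93 to 5.11, 5.44 and 5.37. Mki67 rose by 0.75 ± 0.22 (adjusted p = 0.012), from 6.44, 6.56 and 6.47 to 7.06, 7.48 and 7.18. Every P15 array of both genes lay above every E18.5 array. Rrm2 rose by 0.70 ± 0.21 (adjusted p = 0.016), from 5.60, 5.69 and 5.67 to 6.24, 6.62 and 6.21.

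The widest change of any member was the fall of Ccnd1. In wild type it went from 6.90, 6.71 and 6.77 to 5.55, 5.57 and 5.34, a change of -1.31 ± 0.09 (adjusted p = 3.5e-08 in limma), which is 3.69-fold with base e or 2.47-fold with base 2. In null it went from 6.81, 6.72 and 6.97 to 5.70, 5.70 and 5.69, a change of -1.14 ± 0.09 (adjusted p = 1.6e-07). Both genotypes dropped without overlap, and the call held in all 27 settings tried. Cdk2, the partner of cyclins E and A, fell by 0.40 in wild type (SE 0.15, adjusted p = 0.036) and by 0.64 in null (SE 0.15, adjusted p = 0.0022). In wild type it read 6.49, 6.54 and 6.53 and then 6.11, 6.21 and 6.03, in null 6.55, 6.45 and 6.56 and then 5.75, 6.01 and 5.86. Its wild-type call was lost in 7 of the 27 settings.

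In null the same interval showed a lower set. The difference was negative for 32 of 39 (54.6% of all genes), with a median of -0.26 (all genes -0.04). Of the 39 members, 8 fell while 0 rose (all genes 20.5% lower and 20.3% higher). The share of members that fell was thus no larger than that of all genes. The 8 were Ccnd1, Cdk2, Tyms, Cdk1, Foxm1, Kif20a, Cenpn and Ttk, and the 2 called lower in wild type were both among them. Tyms changed by -0.58 ± 0.15 (adjusted p = 0.0052 in limma), from 5.52, 5.19 and 5.44 to 4.54, 4.98 and 4.90. Cdk1 changed by -0.71 ± 0.19 (adjusted p = 0.0061) and Kif20a, a cytokinesis motor, by -0.66 ± 0.21 (adjusted p = 0.021). In wild type the same 3 genes gave -0.34 ± 0.15, -0.39 ± 0.19 and -0.28 ± 0.21, none of them called. Tested directly, the change in null minus that in wild type was -0.24 ± 0.21, -0.33 ± 0.26 and -0.38 ± 0.30. None of these passed (adjusted p = 0.76, 0.75 and 0.74 in limma). Cdc6, Mki67 and Mcm7 had the smallest p among those higher in null, with 0.27 ± 0.15, 0.31 ± 0.22 and 0.17 ± 0.16, and did not pass. Over both genotypes 7 members were higher at P15 in each, 12 lower in each, 20 higher in wild type and lower in null, and 0 the reverse. The share of all genes in each of these classes was not counted. Some of the 20 had wild-type changes near 0, such as Mcm6 (0.02 ± 0.16) and Cdc20 (0.01 ± 0.22). The test of the genotype difference in this change called 0 members. With values not normalized between arrays the null median was 0.05, the median of all genes moved to 0.25 and 3 members were called. Without E18.5 null array 3 or P15 null array 1, 5 were called.

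The cells in the tissue changed over the same interval. Neutrophil precursor markers rose in 14 of 14 cases in wild type (median 3.27) and from 2 of 14 above the dim level to 14 of 14. Erythroid markers were called higher in 11 of 12 (median 2.35, null 10 of 12 and 1.62) and B-cell progenitor markers in 10 of 13 (median 2.26, null 11 of 13 and 1.92). Cartilage markers were called lower in 15 of 15 (median -2.45, null 13 of 15 and -1.92), and otoconia and supporting cell markers in 9 of 12 (null 10 of 12). Hair cell markers were called lower in 10 of 15 (median -0.61, null 8 of 15 and -0.50). Skeletal muscle markers moved in opposite directions: 14 of 15 were higher in wild type (median 0.55, 9 rose and 1 fell) and 11 of 15 lower in null (median -0.78, 9 fell and 3 rose). Markers listed for granule neurons and their progenitors, cells of the adjoining cerebellum, rose in 8 of 10 and fell in 2 in wild type (median 1.38). That list is not of dividing cells alone, so its rise does not show more of them. The part of these lists in the members' changes was not tested.

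From P15 to P90 most of the set fell in both genotypes. All 39 members were lower in wild type (48.4% of all genes), with a median of -0.65 (all genes 0.01), and 28 fell while 0 rose (9.78% of all genes lower and 8.08% higher). All 39 were lower in null (47.2% of all genes), with a median of -0.71 (all genes 0.02), and 27 fell while 0 rose (6.83% and 6.12%). The calls shared 23 genes, 82.1% of the wild-type list and 85.2% of the null list. Arrays did not overlap for 32 members in wild type (17.1% of all genes) and 37 in null (15.2%). The size differed by role: the medians in wild type and null were -0.52 and -0.50 for MCM genes, -0.54 and -0.43 for DNA synthesis, -0.45 and -0.46 for cyclins and kinases, -0.76 and -0.84 for mitotic kinases and checkpoint, and -0.77 and -0.84 for spindle and kinetochore genes. The role groups were not tested against each other.

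Cenpn had the smallest p in both genotypes. In wild type it changed by -0.70 ± 0.09 (adjusted p = 0.00031 in limma) and in null by -0.78 ± 0.09 (adjusted p = 1e-04), 2.02-fold and 2.19-fold with base e, or 1.63-fold and 1.72-fold with base 2. Ttk gave the widest called change in wild type, -1.10 ± 0.20 (adjusted p = 0.0024), from 4.73, 5.06 and 4.83 to 4.04, 3.34 and 3.94. Cenpf, a large kinetochore protein, gave the widest in null, -1.23 ± 0.22 (adjusted p = 0.0019), from 5.29, 5.59 and 5.41 to 4.39, 4.55 and 3.64. In both cases the P90 arrays all lay below the P15 arrays.

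Foxm1, the factor that drives mitotic genes, changed by -0.72 ± 0.13 in wild type (adjusted p = 0.0025) and by -0.88 ± 0.13 in null (adjusted p = 0.00062). It read 4.73, 4.77 and 4.50 and then 4.25, 3.76 and 3.84 in wild type, and 4.47, 4.40 and 4.51 and then 3.39, 3.86 and 3.51 in null. Cdc6 changed by -0.83 ± 0.15 in wild type (adjusted p = 0.0021), from 5.11, 5.44 and 5.37 to 4.65, 4.28 and 4.50, and gave -0.46 ± 0.15 in null (adjusted p = 0.051), which missed the threshold. Mki67 fell by 0.75 (SE 0.22, adjusted p = 0.032) in wild type and by 0.91 (SE 0.22, adjusted p = 0.014) in null. The genes not called in wild type were Mcm2, Mcm5, Tyms, Ccnd1, Ccne1, Ccne2, Ccna2, Ccnb2, Aurka, Birc5 and Nusap1. The differences nearest 0 were those of Ccnd1 in wild type (-0.07 ± 0.09) and of Cdc45 in null (-0.12 ± 0.11).

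The number of calls in this interval changed with the arrays and settings used. In wild type it was 6 without P15 array 2 and 6 without P90 array 2, 8 with those 4 arrays given a term of their own and 1 with Xist as a covariate, which in wild type differs between these ages. In null it was 10 without P15 array 2, 16 without P15 array 3 and 13 without P90 array 3. With values not normalized between arrays it was 8, and the median of all genes moved to 0.39. Counts over all genes in these settings are not given here, so a loss shared with other genes cannot be told apart. B-cell progenitor markers were called lower in 11 of 13 cases in each genotype (medians -1.30 and -1.50). Erythroid markers were lower in 12 of 12 cases in each genotype, with 2 called in wild type and 1 in null (medians -0.47 and -0.61). Neutrophil precursor markers were called in neither (medians 0.22 and 0.42). Skeletal muscle markers were higher in 15 of 15 cases in each genotype, with 10 called in wild type and 15 in null (medians 0.59 and 1.06). Their part in the members' fall was not tested.

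**Figure D5:**
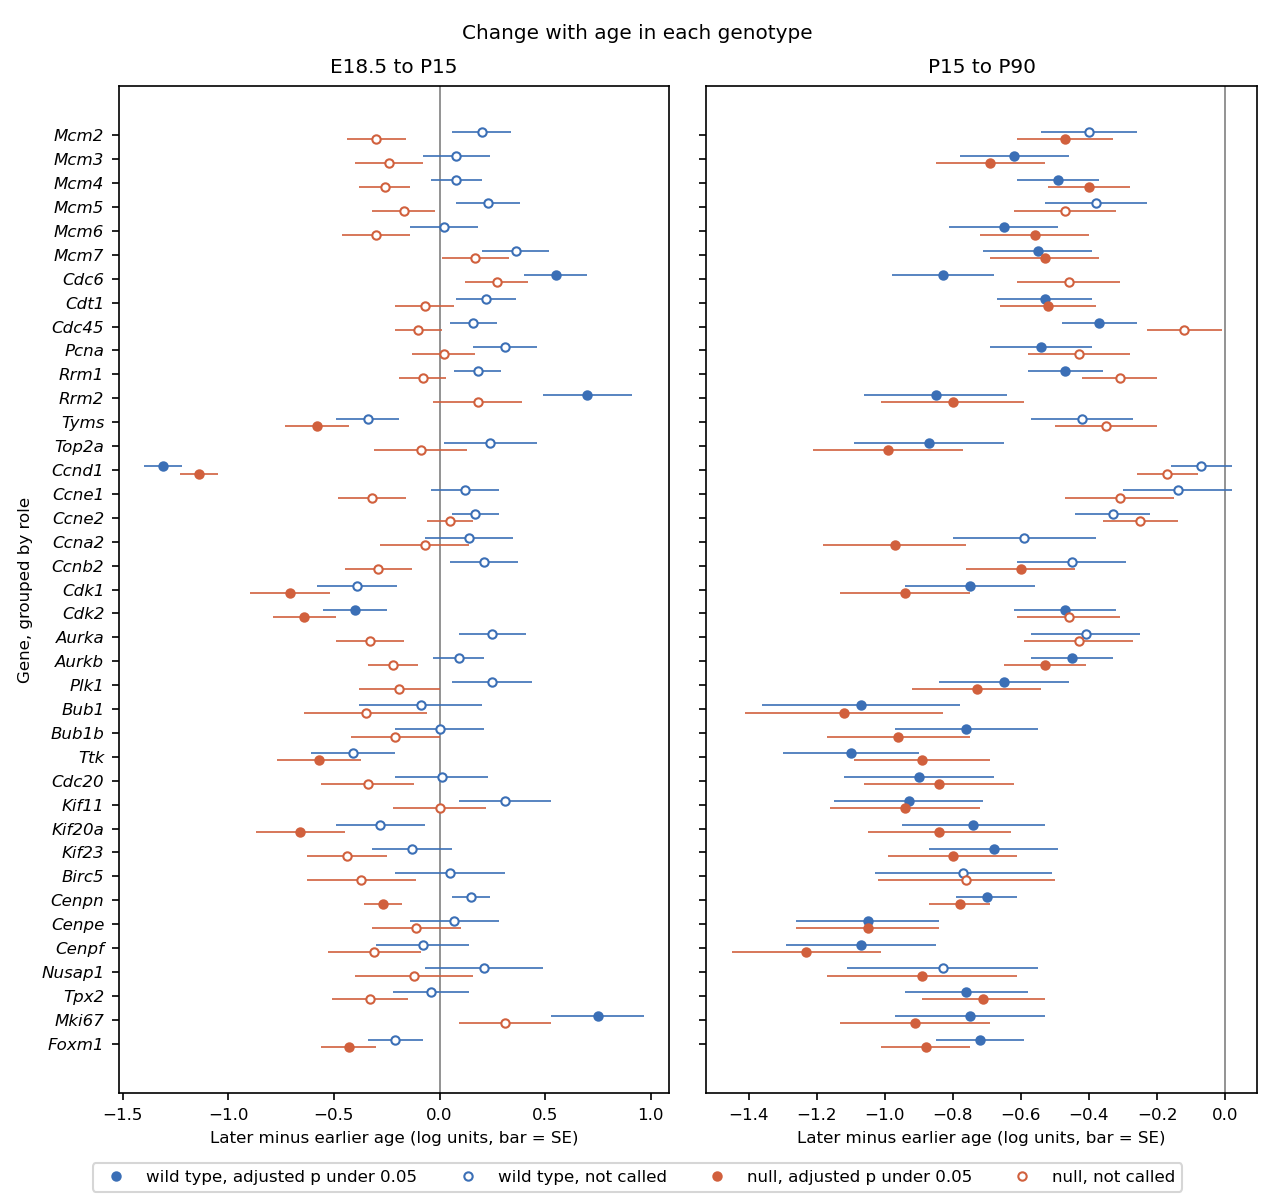
Points give the later minus earlier difference of each gene in log units, blue for wild type and orange for null, filled where the adjusted p was under 0.05, with bars for the standard error. From E18.5 to P15 the 2 genotypes lie on different sides of 0 for 20 genes, with some points close to 0. From P15 to P90 all 39 genes lie left of 0 in both.

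Other replication and mitosis genes, outside the 40, were followed for comparison. Of all genes, 46.3% were lower in null at P15 and 46.4% at P90 (3.27% and 4.36% with an unadjusted p under 0.05). Of 44 other replication genes, 41 were lower in null at P15 (median -0.23) and 34 at P90 (median -0.12), with 0 called at either age (16 and 13 lower with an unadjusted p under 0.05). The smallest p were those of Pola2, a subunit of DNA polymerase alpha, at P15 (-0.30 ± 0.09, adjusted p = 0.52) and of Fen1, the flap nuclease of lagging-strand synthesis, at P90 (-0.42 ± 0.10, adjusted p = 0.12). Of 63 other mitosis genes, 61 were lower at P15 (median -0.30) and 61 at P90 (median -0.32), again with 0 called (14 and 21 with an unadjusted p under 0.05). From P15 to P90, 9.78% of all genes fell in wild type and 6.83% in null. Of the 44 replication genes, 16 fell in wild type and 13 in null, led in both by Ticrr, an origin-firing factor (-0.79 ± 0.13 and -0.86 ± 0.13). Of the 63 mitosis genes, 52 fell in wild type and 51 in null. Aspm, a spindle-pole protein, changed by -1.23 ± 0.21 and -1.31 ± 0.21, and Nek2, a centrosome kinase, by -0.72 ± 0.12 in wild type.

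Among 7 measured inhibitors of cyclin-dependent kinases, Cdkn1c stood out between E18.5 and P15. This gene for p57, which holds cells out of the cycle, read 8.04, 8.11 and 8.05 at E18.5 and 5.67, 5.85 and 5.49 at P15 in wild type. It changed by -2.40 ± 0.11 in wild type (adjusted p = 5.5e-10 in limma) and by -2.18 ± 0.11 in null (adjusted p = 1.4e-09). Cdkn1b, for p27, rose by 0.46 ± 0.08 and 0.66 ± 0.08. Cdkn2d rose by 0.58 ± 0.10 in wild type, with 0.07 ± 0.10 in null that was not called. The test of the genotype difference in this change called 0 of the 7 genes. From P15 to P90 Cdkn2c and Cdkn3 fell in both genotypes (Cdkn2c -0.62 ± 0.15 and -0.50 ± 0.15, Cdkn3 -0.60 ± 0.19 and -0.63 ± 0.19). By genotype 0 of the 7 were called at any age (with an unadjusted p under 0.05, 1 higher at E18.5, 2 lower at P15 and 1 lower at P90).

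Of 21 regulators of the Rb, E2F and DREAM system, 5 rose and 2 fell from E18.5 to P15 in wild type (all genes 19.7% and 21.9%). In null 4 rose and 4 fell (all genes 20.3% and 20.5%). These counts stand near or below the shares of all genes. Rb1, the retinoblastoma protein that restrains E2F, rose by 1.02 ± 0.10 in wild type (adjusted p = 5.4e-07) and by 1.02 ± 0.10 in null (adjusted p = 6.1e-07). E2f2 rose by 1.24 ± 0.16 and 1.07 ± 0.16. From P15 to P90, 9 of the 21 fell in wild type (all genes 9.78%) and 6 in null (6.83%), where 2 rose (6.12%). E2f1, an activator of replication genes, changed by -0.85 ± 0.13 and -0.81 ± 0.13, and E2f7, a repressor of the family, by -0.55 ± 0.09 and -0.61 ± 0.09. Of 10 D-type and other G1 regulators, 4 fell and 1 rose from E18.5 to P15 in wild type (all genes 21.9% and 19.7%), and 6 fell in null (20.5%). Skp2, which targets p27 for degradation, changed by -0.52 ± 0.06 and -0.58 ± 0.06. Ccnd2, cyclin D2, changed by -0.85 ± 0.15 and -0.47 ± 0.15 in that interval, and by -0.66 ± 0.15 and -0.66 ± 0.15 from P15 to P90. From P15 to P90, 7 of the 10 fell in wild type and 3 in null (all genes 9.78% and 6.83%). By genotype, 0 genes of either list were called at any of the 3 ages. With an unadjusted p under 0.05, 1 of the 21 was lower and 1 higher at E18.5. At P15, 4 of the 21 were lower, and at P90, 2 were lower and 1 higher. Of the 10, 0 reached that level at E18.5, 2 were lower at P15 and 1 at P90.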

How the data were processed

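RNA of 18 vestibular samples was hybridised to Affymetrix Mouse Gene 1.1 ST arrays, 3 for each of 6 groups of age and genotype. The authors deposited 1 table of processed log values for 28853 probe sets, with array medians from 3.881 to 4.82. The deposited values were read as natural log values from their range, since the sources used here do not state the base. The labels name no method for background correction or probe summary, so how the authors did these is not stated here. Titles, source names and genotype labels set the groups; the description field of the P15 and P90 wild-type samples names the null genotype instead and was not followed. Of the probe sets, 21789 had 1 gene symbol in the platform annotation, 1621 several and 5443 none listed, and 21698 matched RefSeq. For each gene the probe set with the highest mean was kept, which left 19938 genes.

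Values were quantile-normalised between arrays and fitted in R 4.3.3 with limma 3.58.1 (lmFit and eBayes), 1 mean per group over all 18 arrays. P-values were adjusted over all genes by the Benjamini-Hochberg method (threshold 0.05). The script was tested on simulated data. Correlations between arrays of 1 group were 0.9695 to 0.9897, and 0 pairs were identical. Motifs were searched in RefSeq promoter windows with Python 3.11.15. The members, gene lists and marker lists were chosen with earlier results of these data known. Per-array values were given for members called in a genotype comparison and, in each comparison, for up to 3 members with the smallest p in each direction. From other lists up to 3 genes were named by the same order. Members added to these by role, and the Mki67, Aurka and Foxm1 values given beside them, were picked after values were seen. Alternatives covered scaling, the probe set kept, a filter on dim genes, the replicate block, Xist as a covariate, a term for 4 arrays, fits of the compared arrays only and leaving out each array.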

Additional observations from a re-analysis of the deposited data

How the results depend on the processing

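At E18.5 the members' median was -0.23 with values not normalized between arrays, -0.20 with array medians subtracted and 0.02 without the 4 arrays that stood apart. Cdc6 was then at 0 without the 4 arrays, Ccnb2 at -0.09 and -0.06 under the 2 other scalings, Ccne1 at -0.01 without normalization and -0.09 with a term for the 4 arrays, and Aurka at -0.05, -0.03 and -0.08 under those 3 settings. At P90 the count of called members was 0 with no normalization, array medians subtracted, the replicate block, Xist as a covariate, a term for the 4 arrays and P90 arrays only. For wild type from E18.5 to P15 the median was 0.31 with no normalization, and 8 members were called with array medians subtracted and 9 in a fit of the compared arrays only. For wild type from P15 to P90, 1 was called with Xist as a covariate, 8 with the term and 8 with the compared arrays only. For null from E18.5 to P15, 3 were called and the median was 0.05 with no normalization, and 5 were called and the median was -0.15 with the term. Mcm7 was at -0.07 without the 4 arrays. For null from P15 to P90, no normalization gave 8 called and a median of -0.34, and the compared arrays only gave 9. The change of the genotype difference from P15 to P90 had a median of 0.24 with no normalization. There Foxm1 was at 0.04 and Ccne1 at 0.10, and Ccne1 was at 0.04 with the term, 0.19 without the 4 arrays, and from -0.35 to 0.03 when single arrays were left out. The cause of these shifts was not tested, though fits of the compared arrays only use fewer arrays. For the medians of 0.31 and 0.24 with no normalization, the median of all genes is not given here. A shift shared by all genes cannot be told apart there. Counts of all genes called in these settings are not given either.

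Leaving out 1 array at a time, the E18.5 median ran from -0.07 to -0.01 with 0 called, the P15 median from -0.43 to -0.25 with 0 called, and the P90 median from -0.52 to -0.18 with 0 to 6 called. In wild type the counts ran from 4 to 7 (medians 0.04 to 0.17) from E18.5 to P15 and from 6 to 35 (medians -0.81 to -0.53) from P15 to P90. In null they ran from 5 to 10 (medians -0.32 to -0.20) and from 10 to 31 (medians -0.79 to -0.46). The change of the genotype difference had medians from -0.38 to -0.21 from E18.5 to P15 and from -0.14 to 0.16 from P15 to P90, each with 0 called. In all, 441 of the alternative values of these counts and medians stayed close to the first fit and 45 did not. A count was close when the larger was at most 1.5 times the smaller, so counts that stayed at 0 are among the 441. A median was close when it moved by less than the SD of the members' mean between arrays of a group. That SD was 0.31 for the P90 genotype difference, so its median of -0.18 counted as close, and the tally is a loose measure of stability. The labels do not say that replicate numbers pair the samples. Correlations between same-numbered arrays of the 2 genotypes were low, from -0.19 to 0.24, and highest for array 2 at P15. The members' means at P15 nevertheless shared their order, lowest in array 1 and highest in array 2 of each genotype. They read 5.73, 6.03 and 5.76 (wild type) against 5.36, 5.63 and 5.49 (null). At the other ages the order differed by genotype. A shared order of 3 arrays cannot decide whether they are paired. With the replicate number as a block the P90 count went from 1 to 0, and the other counts moved by less than 1.5 times (28 to 27 and 27 to 25 from P15 to P90). Signal over background was not analysed here, so low values carry no detection call.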
